A study of Drosophila melanogaster with 12 samples.

Results

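Germline genes were followed as sources of Piwi-bound small RNA in ovarian somatic cells (OSCs), a Drosophila melanogaster line cultured from the ovary. The 8 genes vas, nos, aub, AGO3, krimp, ovo, pgc and osk were chosen by name for their germline roles, and all 8 of them were found among the 17469 genes of the table, nos under the symbol nanos. Small RNAs of 20 to 40 nucleotides (nt) had been recovered from Piwi immunoprecipitates and sequenced. Each of the 4 groups held 3 libraries. In the first experiment endogenous Daed was depleted by siRNA and a plasmid supplied either Flag-Daed lacking the SAM domain (deltaSAM) or wild-type Flag-Daed (WT). In the second Armi was depleted, and a plasmid supplied either the Flag-tagged mutant labelled KEE or Flag-tagged wild-type Armi (WT). All groups therefore shared siRNA and plasmid electroporation and came from 1 cell line, and cells depleted without a plasmid protein were not analysed here. Nothing in the labels states that replicates were separate cultures, so each p measures only the spread between these libraries.

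PIWI-interacting RNAs (piRNAs) guide PIWI proteins to transposon transcripts. The ovarian soma uses Piwi alone, and its piRNAs are cut from long single-stranded precursors at the surface of mitochondria by the nuclease Zuc, to which Armi, an RNA helicase, brings the precursor. Daed is a protein of the mitochondrial outer membrane that works with Armi. Messenger RNAs can also enter this route, so a gene can be a source of Piwi-bound piRNAs. The germline adds Aub and AGO3, which amplify piRNAs in nuage, a perinuclear granule built on the helicase Vas and on Tudor-domain proteins. The levels below are reads assigned to a gene in a Piwi immunoprecipitate, and they are not levels of the messenger RNA.

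The libraries held between 1396369 and 3995009 reads, sizes that were inferred from the RPM values. RPM was taken as the number of reads of a gene in every 1000000 of them. RPM is a share of the library, and fewer cells of a kind and less RNA per cell cannot be told apart in it. Reads assigned to genes made up 58.0 ± 0.598% of the library with deltaSAM and 50.2 ± 0.812% with Daed WT, and 79.5 ± 0.251% with KEE and 63.4 ± 1.32% with Armi WT (SD, n = 3 each). Replicate 3 of deltaSAM and replicate 3 of Armi WT stood apart from the other libraries of their groups, with a chi-square per degree of freedom over genes of 4.19 to 5.15 against them, where all other replicate pairs gave 1.18 to 2.05. Of the markers of the ovarian soma, tj and zfh1 were rich sources, and 8 markers summed to between 8515 and 19761 RPM, while Sox100B had no read in any library but 1. Of 8 germline markers, vas and nos among them, the sum lay between 8.83 and 16.5 RPM in 11 libraries and was 32.0 RPM in replicate 3 of deltaSAM. Some genes known as markers of other tissues were sources too, with sums of 147 to 287 RPM for blood cells and 1296 to 2201 RPM for muscle. For neurons the sums were 1113 to 1182 RPM with KEE and 375 to 635 RPM in the other groups. Most of each of these sums, and of that of the ovarian soma, came from 1 gene. In replicate 1 of Daed WT, tj held 7401 of 8515 RPM for the ovarian soma and crq 158 of 208 RPM for blood cells. There elav held 374 of 399 RPM for neurons and sls 1257 of 1327 RPM for muscle. The part of the markers of other tissues in the results below was not tested.

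A gene was taken to lie at the read floor in a library when it had 3 reads or fewer there, which is 0.751 to 2.15 RPM across the libraries. Of the 96 values (8 genes in 12 libraries), 23 lay at the floor. The genes vas and nos accounted for 22 of these, with 11 of 12 libraries each, and AGO3 for 1. The genes aub, osk, krimp, ovo and pgc were above the floor in every library. Over all 12 libraries vas had 26 reads, nos 19, AGO3 123, osk 163, aub 184, krimp 1026, ovo 1353 and pgc 6720. Exon lengths are not given in the sources used here, so these totals were not ranked against each other per length.

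**Figure D1:**
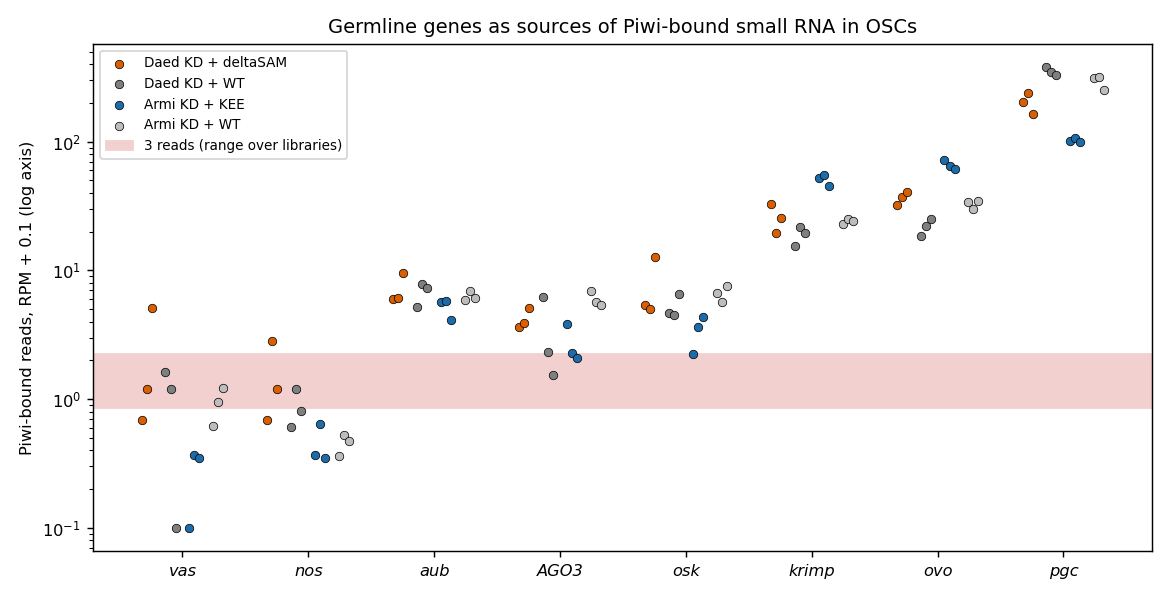
Piwi-bound reads of the 8 genes in each library, on a logarithmic axis of RPM + 0.1 (a gene without reads is drawn at 0.1). Each point is 1 library, and the shaded band spans the RPM worth 3 reads in the deepest and the shallowest library (0.751 to 2.15 RPM). Most points of vas and nos lie in or under the band, and those of krimp, ovo and pgc lie far above it.

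The gene vas (dm6 2L:15061656-15074311) encodes the DEAD-box helicase Vasa, which defines germ cells and organises nuage. It had 1, 2 and 9 reads with deltaSAM and 3, 2 and 0 reads with Daed WT. With KEE it had 0, 1 and 1 reads, and with Armi WT 2, 2 and 3. Apart from replicate 3 of deltaSAM, with 9 reads or 4.97 RPM, all libraries were at the floor. The pooled level was 2.24 RPM with deltaSAM (exact Poisson 95% interval 1.16 to 3.92) and 0.967 RPM with Daed WT (0.314 to 2.26), and the intervals overlapped. It was 0.175 RPM with KEE (0.0211 to 0.631) and 0.794 RPM with Armi WT (0.319 to 1.64). By limma with Benjamini-Hochberg adjustment the adjusted p was 0.275 for deltaSAM and 0.248 for KEE, and neither difference was called. Without replicate 3 of deltaSAM the fitted log2 fold change for deltaSAM was 0.061, against 0.63 with it. With both Armi groups at the floor, the fitted fold with KEE is drawn in the figures but is not read as a change. Such intervals pool the reads of the 3 libraries of a group, so they cover counting error only and not the spread between libraries. No molecular identifiers are given in the sources used here, so copies of 1 molecule cannot be told apart.

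The gene nos (dm6 3R:19157238-19160202) encodes the translational repressor Nanos, which germ cells need to keep their fate. It had 1, 5 and 2 reads with deltaSAM and 1, 2 and 1 with Daed WT. Its reads were 1, 2 and 1 with KEE and 1, 1 and 1 with Armi WT. The only value above the floor was the 5 reads (2.72 RPM) of replicate 2 of deltaSAM. At this depth no difference was detectable by limma, at an adjusted p of 0.435 for deltaSAM and 0.988 for KEE. A level above 2.95 RPM in the pooled deltaSAM libraries, or above 0.994 RPM in the pooled Armi WT libraries, lies outside the exact Poisson 95% interval.

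Aub is the germline PIWI protein that cuts sense transposon transcripts in nuage. Its gene (dm6 2L:10997819-11001476) had low levels that were close in all groups, with 5.88, 5.99 and 9.39 RPM with deltaSAM and 5.098, 7.73 and 7.16 RPM with Daed WT. With KEE it had 5.58, 5.68 and 4.005 RPM, against 5.75, 6.85 and 6.03 RPM with Armi WT. The libraries of deltaSAM and Daed WT overlapped, and those of KEE all lay just under those of Armi WT. The log2 fold change was 0.07 (95% interval -0.50 to 0.63) with deltaSAM and -0.25 (-0.82 to 0.31) with KEE, and neither was called (adjusted p = 0.876 and 0.490, limma with Benjamini-Hochberg). With TMM factors (edgeR) aub was called lower with KEE, at -0.69 (adjusted p = 0.0384). Folds of the main limma fit, here and below, are on the log2(RPM + 1) scale, which understates changes of genes with few reads. Those from edgeR and DESeq2 are fitted to read counts and are not on that scale. The sign for deltaSAM turned to -0.12 after scaling to the gene-table total, and to -0.13 when its replicate 3 was left out.

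AGO3 is the PIWI protein that pairs with Aub in the germline amplification cycle. Its gene (dm6 3L:23554593-23689640) had 3.53, 3.81 and 4.97 RPM with deltaSAM, and 6.12, 2.21 and 1.43 RPM with Daed WT. The Daed WT libraries ran from under to over those of deltaSAM, and the difference was not called (log2 fold change 0.41 ± 0.35 SE, adjusted p = 0.397, limma). In KEE libraries the levels were 3.72, 2.16 and 2.002 RPM, against 6.79, 5.57 and 5.27 RPM with Armi WT. All KEE libraries lay below all Armi WT libraries, with 8 to 14 reads with KEE and 13 to 26 with Armi WT, and AGO3 fell with a log2 fold change of -0.95 ± 0.35 (adjusted p = 0.0302, limma). The call was lost when replicate 1 (adjusted p = 0.104) or replicate 2 (0.0579) of Armi WT or replicate 2 (0.0944) or replicate 3 (0.110) of KEE was left out.

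The Tudor-domain protein Krimp binds Aub and AGO3 in nuage. The gene krimp (dm6 2R:16238103-16240722) was the richest source of the 4 nuage and PIWI genes in reads, with 27 to 205 a library. It had 52.0, 55.4 and 45.3 RPM with KEE, against 22.98, 24.8 and 24.1 RPM with Armi WT. The groups were well apart, and krimp rose with KEE by a log2 fold change of 1.05 ± 0.17 (SE; adjusted p = 8.5e-06, limma with Benjamini-Hochberg). Over the alternative analyses this rise ran from 0.67 to 1.13. With deltaSAM it had 32.9, 19.6 and 25.4 RPM, against 15.3, 21.5 and 19.3 RPM with Daed WT. These libraries overlapped. The log2 fold change was 0.44 ± 0.17 with an adjusted p of 0.0499, just under the threshold of 0.05, and the call held in 5 of 24 alternative analyses, among them 2 of the 12 that left out 1 library. It was 0.26 (adjusted p = 0.295) without replicate 1 of deltaSAM, 0.30 (0.222) without replicate 1 of Daed WT and 0.24 (0.314) when scaled to gene reads only.

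Oskar starts the assembly of germ plasm at the posterior of the oocyte, and its messenger RNA also has a structural role in oogenesis. The gene osk (dm6 3R:8935126-8938395) had 5.29, 4.901 and 12.7 RPM with deltaSAM, and 4.59, 4.41 and 6.45 RPM with Daed WT. Only replicate 3 of deltaSAM lay above the WT libraries, and the difference was not called (log2 fold change 0.39 ± 0.32 SE, adjusted p = 0.371, limma with Benjamini-Hochberg). Without that library the log2 fold change was 0.00. With KEE osk had 2.12, 3.52 and 4.26 RPM, against 6.53, 5.57 and 7.53 RPM with Armi WT. The groups did not overlap, with 8 to 17 reads with KEE and 13 to 25 with Armi WT, and osk fell with a log2 fold change of -0.84 ± 0.32 (adjusted p = 0.0359). That call was lost without replicate 1 (adjusted p = 0.178) or replicate 2 (0.0573) of KEE, and without replicate 1 (0.0807) or replicate 3 (0.113) of Armi WT.

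Pgc is a small protein that silences RNA polymerase II transcription in the newly formed germ cells of the embryo. Its gene (dm6 2R:22330200-22332813) was the one with the most reads of the 8 in every library, and it fell with both variants. It had 203, 237 and 165 RPM with deltaSAM, against 380.3, 349 and 332 RPM with Daed WT. With KEE it had 101, 107 and 98.9 RPM, against 315, 320.3 and 253 RPM with Armi WT. The groups were apart in both experiments. The log2 fold change was -0.82 ± 0.11 (SE; adjusted p = 9.1e-07, limma with Benjamini-Hochberg) with deltaSAM and -1.51 ± 0.11 (adjusted p = 1.8e-12) with KEE. Both calls held in all 24 alternative analyses, with log2 fold changes of -1.03 to -0.61 and -1.96 to -1.44. The span of pgc shares 1873 base pairs (bp) with T3dh. That gene had 2.35, 4.36 and 3.31 RPM with deltaSAM and 1.02, 1.104 and 0.716 RPM with Daed WT. All its Daed WT values lie at the floor, where 3 reads are 1.53, 1.66 and 2.15 RPM. Its log2 fold change of 1.14 (adjusted p = 0.0114, limma) therefore rests on few reads. In the Armi experiment T3dh had 3.19, 1.35 and 3.25 RPM with KEE and 1.31, 1.71 and 1.51 RPM with Armi WT, which was not called (0.47, adjusted p = 0.291).

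Ovo is a zinc-finger transcription factor of the female germline, and the same locus encodes the epidermal factor Shavenbaby. The gene ovo (dm6 X:5048273-5070929) rose with both variants. With deltaSAM it had 32.3, 37.03 and 40.9 RPM, against 18.4, 22.1 and 25.1 RPM with Daed WT. It had 72.2, 64.6 and 60.8 RPM with KEE, against 33.7, 29.97 and 34.7 RPM with Armi WT. No library overlapped in either experiment. The log2 fold change was 0.73 ± 0.15 (SE; adjusted p = 0.00023, limma with Benjamini-Hochberg) with deltaSAM and 0.99 ± 0.15 (adjusted p = 1.6e-06) with KEE. Both calls held in all 24 alternative analyses, with log2 fold changes of 0.54 to 0.94 and 0.58 to 1.04.

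**Figure D2:**
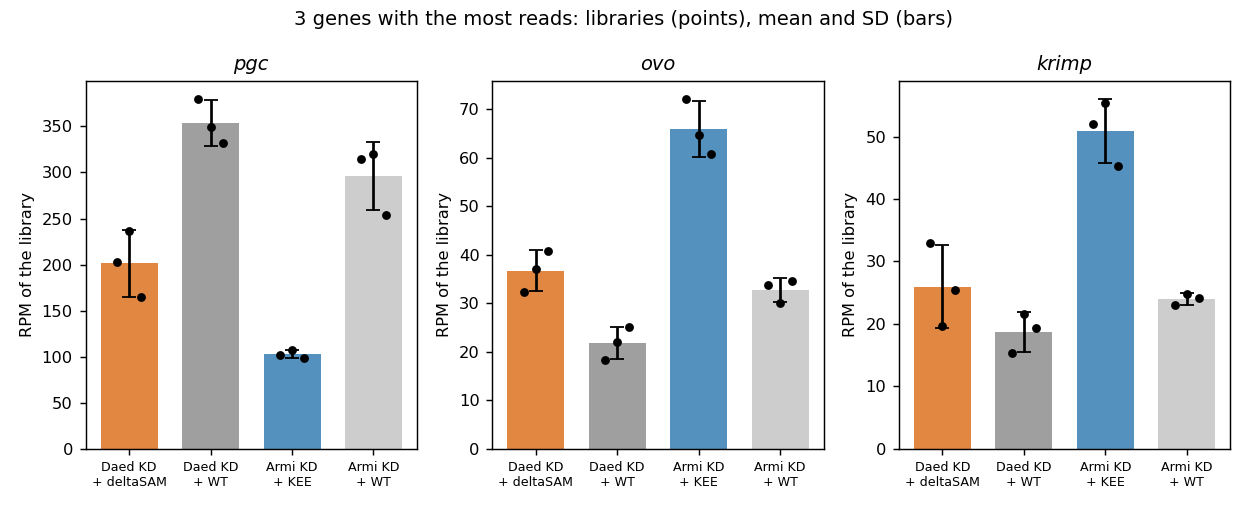
RPM of pgc, ovo and krimp by group. Points are libraries, bars are means and error bars SD (n = 3), on axes that start at 0. For pgc the deltaSAM libraries (165 to 237 RPM) and the KEE libraries (98.9 to 107 RPM) lie below those of their WT groups, and for ovo both variants lie above.

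Together the 8 genes held 264 to 312 RPM with deltaSAM and 392 to 432 RPM with Daed WT, and 216 to 239.6 RPM with KEE and 333 to 394 RPM with Armi WT. Both sums were lower with the variant in every library, and pgc held the most of these reads in every library. It supplied 62.3 to 75.9% of the reads of the 8 genes with deltaSAM and 84.6 to 88.1% with Daed WT. Its part was 42.7 to 45.8% with KEE and 76.2 to 81.2% with Armi WT. The other 7 genes summed to 75.1 to 99.4 RPM with deltaSAM and 51.5 to 60.2 RPM with Daed WT, and to 117 to 136 RPM with KEE and 74.1 to 79.1 RPM with Armi WT, higher with the variant in every library.

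Of the 8 genes, all of which passed the filter of at least 1 RPM in at least 3 libraries, 2 rose (ovo and krimp) and 1 fell (pgc) with deltaSAM. Among all 8246 genes tested 17.3% rose and 18.9% fell, 36.2% in all. With KEE 2 rose (krimp and ovo) and 3 fell (pgc, AGO3 and osk), where 33.0% of all genes rose and 11.7% fell, 44.7% in all. The median log2 fold change of the 6 genes other than vas and nos was 0.40 with deltaSAM and -0.54 with KEE, against -0.10 and 0.30 over all genes tested. With the fitted values of vas and nos, which rest on reads at the floor, the medians of the 8 were 0.40 and -0.45. Counts of 8 genes are too small to call the set different from the rest, and no such test was made.

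**Figure D3:**
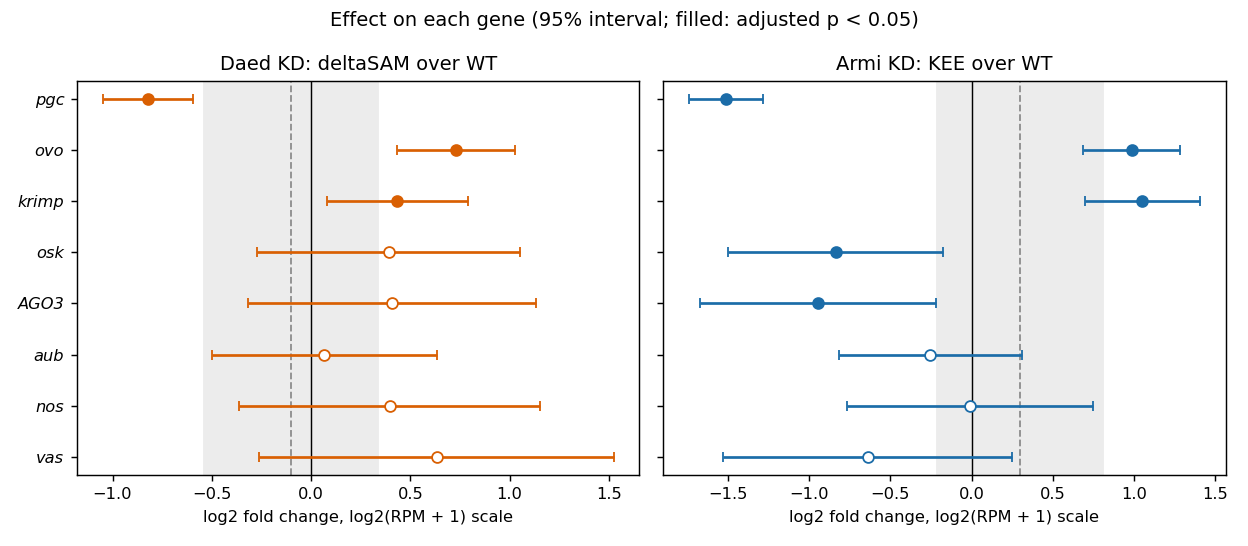
Log2 fold change of each gene with its 95% interval, deltaSAM over Daed WT on the left and KEE over Armi WT on the right; filled points have an adjusted p under 0.05. The grey band holds the middle 50% of all genes tested and the dashed line is their median (-0.10 and 0.30). The intervals of pgc and ovo exclude 0 in both panels.

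The effect of KEE was set against that of deltaSAM in the same fit. For pgc the KEE effect minus the deltaSAM effect was -0.69 ± 0.16 on the log2 scale (SE; adjusted p = 0.00069, limma with Benjamini-Hochberg), so the fall was the larger with KEE, and this held in all 23 alternatives. The difference was -1.36 ± 0.50 for AGO3 (adjusted p = 0.0313) and -1.23 ± 0.46 for osk (0.0324), and 0.62 ± 0.25 for krimp (0.0453). Among all genes 11.0% were lower and 29.4% higher in this sense, 40.4% in all. The osk difference was -0.84 (adjusted p = 0.130) without replicate 3 of deltaSAM. For krimp it was 0.05 (adjusted p = 0.906) with each library centred on its median gene and 0.08 (0.852) with TMM factors (edgeR). For AGO3 the largest adjusted p, 0.0957, came without replicate 3 of Daed WT. With 1 library left out the call held in 6 of 12 fits for AGO3, 6 of 12 for osk and 4 of 12 for krimp. For ovo the difference was 0.26 with a 95% interval of -0.17 to 0.68 (adjusted p = 0.349). It was -0.31 centred on the median gene. For vas, whose reads lie at the floor, the difference was not called (adjusted p = 0.102), and it was called lower when centred (0.0206), with TMM factors (0.0370, edgeR) and without replicate 1 of deltaSAM (0.0367).

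Between the 2 WT groups, which differ in the protein depleted and resupplied and in the experiment, only ovo was called. It averaged 32.8 ± 2.47 RPM in Armi WT and 21.8 ± 3.36 RPM in Daed WT (SD, n = 3 each), a log2 fold change of 0.57 ± 0.15 (SE; adjusted p = 0.0033, limma with Benjamini-Hochberg), where 18.9% of all genes were higher and 6.35% lower (25.3% in all). Scaled to the gene-table total it was 0.25 (adjusted p = 0.231). For pgc the WT levels were 296 ± 37.1 and 354 ± 24.7 RPM (adjusted p = 0.0887), and with that scaling the log2 fold change was -0.60 (1.1e-04). Ordered by mean level, pgc ran from Daed WT over Armi WT and deltaSAM down to KEE, and no 2 neighbours in this order shared a range. For both ovo and krimp the order was KEE, deltaSAM, Armi WT and Daed WT, in which deltaSAM and Armi WT overlapped. In AGO3 only Armi WT, the highest, stood clear of its neighbour, and in osk and aub only KEE, the lowest, did.

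Among other factors of the germline piRNA pathway, a list of 14 genes of nuage and of germline cluster transcription, 12 could be tested. With deltaSAM 1 rose and 1 fell, beside 17.3% and 18.9% of all genes. The helicase gene spn-E fell, with 98.2 ± 11.2 RPM with deltaSAM and 137 ± 11.7 RPM with Daed WT (log2 fold change -0.48 ± 0.10 SE), and tud, whose protein is the founding Tudor-domain scaffold of germ plasm, rose, with 376 ± 14.3 and 310 ± 9.55 RPM (0.28 ± 0.08). With KEE 5 rose and 0 fell, beside 33.0% and 11.7% of all genes. The Tudor-domain genes tapas (20.7 ± 1.85 RPM with KEE and 7.42 ± 3.15 RPM with Armi WT) and BoYb (14.6 ± 1.48 and 6.69 ± 1.11 RPM) were among them, as were squ (34.1 ± 0.969 and 18.5 ± 2.34 RPM) and vls (5.78 ± 1.09 and 1.69 ± 0.573 RPM). The median log2 fold change of the list was -0.13 with deltaSAM and 0.48 with KEE, against -0.10 and 0.30 over all genes.

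A list of 25 genes of germ plasm, oogenesis and germ cell fate had 21 tested members, of which 10 rose and 0 fell with deltaSAM and 5 rose and 4 fell with KEE. Over all genes 17.3% rose and 18.9% fell with deltaSAM, and 33.0% rose and 11.7% fell with KEE. Many of these genes also act in somatic cells. The RNA-binding gene stau, which transports osk RNA in the oocyte, had 409 ± 44.5 RPM with deltaSAM and 177 ± 10.7 RPM with Daed WT (log2 fold change 1.20 ± 0.09 SE), and it rose with KEE too, with 889 ± 31.4 RPM and 489 ± 60.4 RPM in Armi WT (0.87 ± 0.09). The stem cell gene stwl also rose with both variants, by 1.56 ± 0.14 with deltaSAM and 1.54 ± 0.14 with KEE, and so did pum, the partner of Nanos in translational repression (0.78 ± 0.09 and 1.28 ± 0.09). The tumour suppressor gene mei-P26 rose with deltaSAM (0.70 ± 0.09). The sex determination gene Sxl rose with KEE, with 786 ± 19.8 RPM and 206 ± 11.1 RPM in Armi WT (1.93 ± 0.09). In the same comparison grk, the oocyte ligand that patterns the egg, fell, with 12.5 ± 1.06 RPM and 46.7 ± 1.23 RPM in Armi WT (-1.82 ± 0.15). All genes named in these lists had an adjusted p under 0.05, the largest being 0.0063 for tud (limma with Benjamini-Hochberg). The median of this list was 0.45 with deltaSAM and 0.17 with KEE, against -0.10 and 0.30 over all genes, and cup, a translational repressor of osk, had no read in any library.

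**Figure D4:**
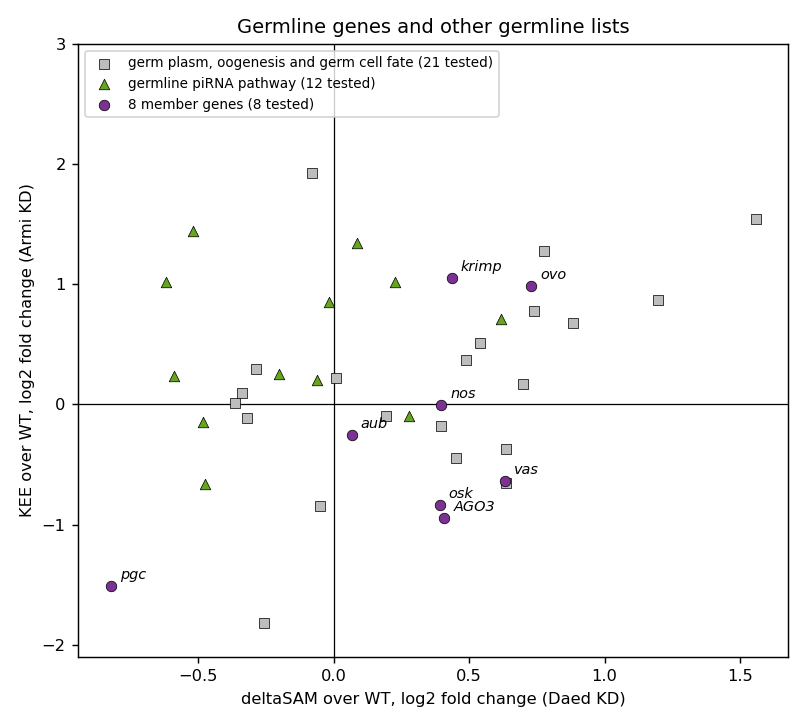
Log2 fold change with deltaSAM (horizontal) against that with KEE (vertical) for the 8 genes (circles, labelled) and for the tested members of the germline piRNA list (triangles, 12) and of the germ plasm and oogenesis list (squares, 21). The 2 comparisons use separate WT libraries. The gene pgc lies at the lower left and ovo and krimp at the upper right. The genes osk and AGO3, called only with KEE, lie at the lower right. So do vas, nos and aub, which were called in neither comparison.

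Reads from germline genes were uneven in replicate 3 of deltaSAM, which also stood apart from the other libraries of its group over genes in general. It held the highest level of the 12 libraries for vas, osk, aub, orb, zpg and otu. The germline translation factor gene orb had 16.0 RPM there, against 3.86 to 8.99 RPM in the other 11 libraries, and zpg, a germline gap junction gene, had 2.76 RPM, against at most 0.588 RPM. The gene otu had 3 reads there and 1 read in all others together. Of the 8 germline markers it was the highest for vas, orb, zpg and otu and not for nos, bam, bgcn or rhi. The gene bam had 2.21 RPM there and 3.53 RPM in replicate 1 of deltaSAM, while bgcn and rhi had 1.66 RPM each there and peaked in KEE libraries, at 3.98 and 3.504 RPM. Nor was it the highest for AGO3, krimp, ovo or pgc. The blood cell marker crq, outside the germline lists, also peaked in replicate 3 of deltaSAM, at 258 RPM against at most 196 RPM elsewhere. The sum of the blood cell markers was 287 RPM there, against at most 243 RPM in the other libraries. The sums for ovarian soma, neurons and muscle peaked in other libraries. The source of the reads was not tested.

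**Figure D5:**
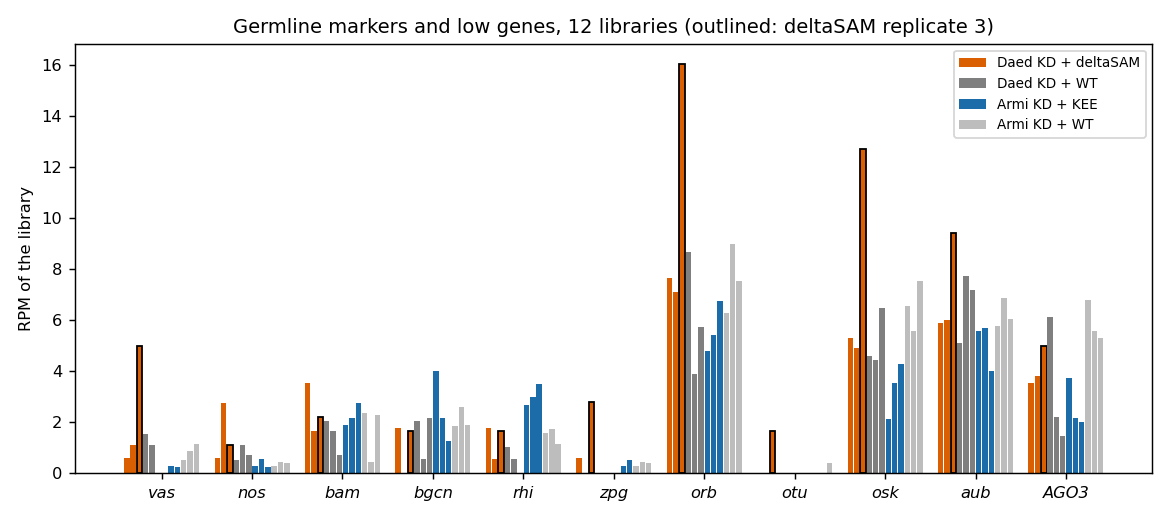
RPM of 8 germline markers and of the low genes osk, aub and AGO3 in the 12 libraries, coloured by group, with replicate 3 of deltaSAM outlined. The outlined bar is the tallest for vas, zpg, orb, otu, osk and aub, and not for nos, bam, bgcn, rhi and AGO3.

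The profiles of the 3 genes with the most reads were matched to all tested genes by Pearson correlation of log2(RPM + 1) over the 12 libraries, as a description, since libraries of a group share their treatment. Closest to pgc were nAChRbeta2 (r = 0.99), CG4570 (0.99) and Myd88 (0.98). Closest to ovo were Ubc2 (0.98), PolI (0.98) and Asap (0.98), and closest to krimp were Tbcb (0.96), chb (0.96) and Drice (0.96). Of these CG4570, for example, averaged 22.9 RPM with deltaSAM and 37.9 RPM with Daed WT, and 10.6 RPM with KEE and 30.8 RPM with Armi WT.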

How the data were processed

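Small RNAs bound to Piwi in 12 OSC libraries were analysed from 1 deposited table. The authors' values are labelled RPM in the column headers, which do not give the total used for scaling. Library sizes were inferred from the values, with the smallest RPM step taken as 1 read. The submitters' processing notes name STAR and HTSeq, with the builds dm6 and BDGP6. Strand setting, treatment of overlapping genes and multi-mapping are not given in the sources used here, so reads of genes with shared spans cannot be told apart. Whole reads were recovered from the RPM (100.0% of values within 0.01). The transposon table was not used here. RefSeq supplied symbols, found for 17340 of 17469 identifiers (99.3%), and gene spans on dm6.

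The members, lists and tests were chosen with earlier results of these data known. The main test was limma-trend on log2(RPM + 1), all 12 libraries in 1 fit, for genes of at least 1 RPM in at least 3 libraries, with Benjamini-Hochberg adjustment over 8246 genes at 0.05. The 8 genes were named whatever their values, with up to 4 called genes by p in each list and comparison, the 3 closest profiles of the 3 genes with most reads, and genes overlapping a member. Intervals are 95%. Alternatives covered pseudocount, filter, replicate block, scaling, 1 experiment alone, edgeR and DESeq2 on recovered reads, and each library left out. Leaving out replicate 3 of deltaSAM and of Armi WT together was added after seeing the data. The fit was tested on simulated data. Tables were joined in Python 3.11.15 (scipy 1.17.1, pandas 2.3.3, numpy 2.4.6) and drawn with matplotlib 3.10.9. Fits ran in R 4.3.3 with DESeq2 1.42.0, limma 3.58.1 and edgeR 4.0.16.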

Additional observations from a re-analysis of the deposited data

Results flagged for a closer look

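For 4 of the 8 genes the effect of KEE differed from that of deltaSAM in a test of the difference itself (limma with Benjamini-Hochberg over all genes tested), where 40.4% of all genes tested were called. The difference in log2 fold change was -0.69 for pgc, which fell in both comparisons. It was -1.36 for AGO3 and -1.23 for osk, both called lower with KEE and not called with deltaSAM, from 2 to 26 and from 8 to 25 reads a library. It was 0.62 for krimp, which was called higher in both comparisons. Of these the pgc difference alone was called in all 23 alternatives, against 13 of 22 for AGO3, 14 of 22 for osk and 6 of 23 for krimp.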

How the results depend on the processing

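The calls of pgc and ovo in both comparisons and of krimp with KEE held in every alternative. The number of these genes called higher with deltaSAM was 1 instead of 2 with pseudocounts of 0.1 and 10, without a filter, with the replicate block, scaled to the gene-table total, with 1 experiment alone, with edgeR and library sizes, with DESeq2 and without replicate 3 of deltaSAM and of Armi WT together, as krimp was lost. The number called lower with KEE was 1 instead of 3 without a filter and at 10 RPM, which leaves 3 of the 8 genes. It was 2 with a pseudocount of 10 and without both replicates 3, and 4 with TMM factors, where aub was added. For the KEE effect minus the deltaSAM effect, the number called higher was 0 instead of 1 with a pseudocount of 0.1, without a filter, with the replicate block, at the gene-table total, centred, with either edgeR fit, with DESeq2 and without both replicates 3. The number called lower was 1 instead of 3 without a filter, at 10 RPM and without both replicates 3, 2 with edgeR and library sizes, and 4 when centred and with TMM factors, where vas was added. Between the WT groups 0 were called higher at the gene-table total, and 1 was called lower there, with TMM factors and with DESeq2.

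Leaving out 1 library gave 1 to 2 genes higher with deltaSAM, 1 to 3 lower with KEE, 0 to 1 higher and 1 to 4 lower for the difference of effects, and 1 to 2 higher and 0 to 1 lower between the WT groups. Over all genes the calls numbered 2987 with deltaSAM (2589 to 2970 with a library left out) and 3684 with KEE (3199 to 3862). Rises were 47.8% of the calls with deltaSAM, against 28.9% at the gene-table total and 68.8% centred, and 73.8% with KEE, against 55% and 49.7%. With the floor at 1 read 13 of the 96 values lay at it, and 40 with the floor at 10 reads.

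Signs turned only where nothing was called. The log2 fold change of aub with deltaSAM was -0.12 scaled to gene reads only and -0.13 without both replicates 3 (-0.13 to 0.17 leaving out 1 library). That of nos with KEE was 0.031 in edgeR with library sizes (-0.11 to 0.045). The KEE effect minus the deltaSAM effect on ovo was -0.31 centred, -0.31 with TMM factors and -0.27 with DESeq2. Between the WT groups vas gave -0.0033 with a pseudocount of 10, -0.031 at the gene-table total, -0.25 and -0.32 with edgeR (library sizes, TMM), -0.32 with DESeq2 and -0.054 without both replicates 3 (-0.34 to 0.33), and aub -0.23 to 0.028. The cause was not tested.

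Same-numbered libraries of an experiment did not deviate together (r of -0.01 to 0.06), so the numbers were not taken as pairs. With the replicate block 3000 genes were called with deltaSAM and 3682 with KEE, and krimp with deltaSAM had an adjusted p of 0.0627 (limma). The block could not be fitted in the comparison between the WT groups. With at most 9 reads of vas and 5 of nos in a library, the fitted folds of both genes rest on reads at or near the floor.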

Other observations

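Several of the 8 genes share their span with a gene that was a richer source of Piwi-bound reads. The gene vig (2L:15062931-15070316) lies inside vas and had 198 to 221 RPM with deltaSAM and 131 to 144 RPM with Daed WT, and 649 to 687 RPM with KEE and 355 to 416 RPM with Armi WT, while vas itself lay at the floor in 11 of 12 libraries. It rose in both comparisons, by a log2 fold change of 0.61 ± 0.09 (SE) with deltaSAM and 0.80 ± 0.09 with KEE (adjusted p = 2.1e-06 and 4.9e-09, limma with Benjamini-Hochberg).

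The gene nos, also at the floor in 11 of 12 libraries, overlaps CG11779 by 2641 bp and the RNA methyltransferase gene Nsun5 by 104 bp. CG11779 had 44.2 to 47.6 RPM with deltaSAM and 65.9 to 80.6 RPM with Daed WT (log2 fold change -0.68 ± 0.11 SE, adjusted p = 2.3e-05), and 74.8 to 81.7 RPM with KEE and 75.7 to 82.0 RPM with Armi WT (-0.04, adjusted p = 0.821, limma with Benjamini-Hochberg). Nsun5 had 113 to 149 RPM with deltaSAM and 40.8 to 45.1 RPM with Daed WT (log2 fold change 1.52 ± 0.15, adjusted p = 3.1e-09), and 18.7 to 24.2 RPM with KEE and 20.1 to 28.3 RPM with Armi WT (adjusted p = 0.424, limma with Benjamini-Hochberg). At aub the neighbour TTLL4A, which shares 79 bp with it, had 206 to 239 RPM with deltaSAM and 168 to 199 RPM with Daed WT, and 121 to 136 RPM with KEE and 193 to 207 RPM with Armi WT. Its log2 fold change was 0.29 ± 0.10 (SE) with deltaSAM and -0.66 ± 0.10 with KEE (adjusted p = 0.0162 and 9.7e-07, limma). The gene ovo shares 15596 bp with lncRNA:CR44833, which was not called with deltaSAM (log2 fold change 0.71, adjusted p = 0.171) or KEE (-0.13, adjusted p = 0.829, limma). This lncRNA had 2, 8 and 6 reads with deltaSAM and 4, 1 and 2 with Daed WT, so its fold there rests on few reads. The gene osk shares 2680 bp with lncRNA:osk, for which no reads are given, and 162 bp with asRNA:CR44020. The gene solo shares 10478 bp with vas. How reads in the shared bases were assigned is not given in the sources used here.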
